A study of Mus musculus with 4 samples.

Results

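The genes described here are the replication-dependent histone genes of the mouse, which encode the H1, H2A, H2B, H3 and H4 histone proteins that package newly made DNA. They were taken from the gene table by symbol, as every gene whose symbol begins with Hist1h, Hist2h, Hist3h or Hist4h followed by a class number, and the rule used no measured value. It found 70 of 52550 genes, of which 6 encode H1, 20 H2A, 19 H2B, 12 H3 and 13 H4. In the annotation 67 of them are protein-coding, 2 are processed pseudogenes and 1 is an unprocessed pseudogene. By symbol, 56 belong to Hist1 on chromosome 13, 10 to Hist2 on chromosome 3, 3 to Hist3 on chromosome 11, and 1 to Hist4 on chromosome 6. The pseudogene Hist1h2al lies at chr13:51202727-51203065, far from the other Hist1 members.

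Histone proteins are needed in bulk while a cell copies its DNA, so these genes are transcribed mainly in S phase and their mRNAs are lost when replication stops. Most of the genes have a single exon, and the mRNA ends in a conserved stem-loop in place of a poly(A) tail. The stem-loop binding protein SLBP holds that structure, and the U7 small nuclear RNP, with its subunits LSM10 and LSM11, directs the cut that forms the end. In the newborn retina, dividing progenitors and early-born neurons sit side by side.

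YTHDF2 is a cytoplasmic protein that recognizes N6-methyladenosine (m6A) in RNA, and the study used RNA immunoprecipitation (RIP) with an anti-YTHDF2 antibody to find the transcripts it holds. Retinas of wild-type C57BL/6 pups at P0 were dissociated with papain and lysed, and 2 biological replicates each gave an input library, made before the pulldown, and a RIP library, made from the eluted RNA. All 4 libraries come from the same genotype and age, and a control IgG pulldown that the methods name was not analysed here. The RNA is that of all cells of the tissue, so fewer cells of a type and less RNA per cell cannot be told apart.

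The libraries held from 19530226 to 39499994 counts in all, of which protein-coding genes took 2083594 to 4175459. Fitted by edgeR (quasi-likelihood), 1286 of 13632 genes were enriched in RIP, meaning a log2 fold change of 1 or more with p under 0.05 before adjustment, and 2344 were depleted, at -1 or lower with the same p. Scaling the libraries by their size alone gave 2357 enriched and 1725 depleted genes. The 7 retinal progenitor markers summed to between 119 and 172 FPKM in the 4 libraries, whereas 3 lens and 3 pigment epithelium markers each summed to at most 0.0367 FPKM and 3 globin genes to at most 0.493 FPKM. A level per transcript length is given below in FPKM, and other levels in CPM, which are counts scaled to the size of the library after edgeR's TMM correction. With 2 samples a group, an exact permutation test of a single value can give no p below 0.333, so single genes rest on the spread that edgeR shares between genes.

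The 3′ stem-loop that marks these mRNAs could be read from the annotated transcripts. The search was made on the sense strand after the stop codon for a pattern of 16 bases, which opens with GG and 3 free bases, goes on with TTNTNA (N is any base), and closes with 3 free bases and CC. It was found in 45 of the 67 protein-coding members. It began 21 to 58 bases after the stop codon, with a median of 31. In a window of the first 100 bases after the stop codon it was present in 26 of 31 members with an annotation that long (83.9%) and in 34 of 19699 other protein-coding genes (0.173%). Of the members without it, 16 have an annotated end within 40 bases of the stop codon, so that the letters are not in the annotation. Among members for which a site was read, the 1 with the highest mean CPM in the inputs is shown for each class. For H3 and H4 the most changed is shown too. The sites below are from GENCODE M21 transcripts, with the 16 bases of the stem-loop in capitals.
Hist1h1e: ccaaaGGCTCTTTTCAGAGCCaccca
Hist1h2ab: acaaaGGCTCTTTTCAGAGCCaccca
Hist1h2bb: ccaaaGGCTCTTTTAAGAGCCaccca
Hist1h3c: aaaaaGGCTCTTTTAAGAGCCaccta
Hist1h3f: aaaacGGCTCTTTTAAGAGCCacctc
Hist1h4a: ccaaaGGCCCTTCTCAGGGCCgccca
Hist1h4d: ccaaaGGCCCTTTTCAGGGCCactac
The form shown for Hist1h1e and Hist1h2ab was the commonest, in 25 of the 45. All 33 sites of H1, H2A, H2B and H3 genes began with GGCTC, whereas of the 12 H4 sites 10 began with GGCCC and 2 with GGTCC.

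The coding sequences are close copies of one another, which limits what a single gene's count can say. Among members of equal coding length the median identity of the coding bases was 96.4% for H2A, 95.7% for H2B, 97.6% for H3 and 93.9% for H4. Cut into runs of 50 bases, 32 of the 70 members shared at least 50% of their runs with 1 other gene and 10 shared at least 90%. There were 6 members with no run of their own, and 4 with only runs of their own, namely Hist1h1a, Hist1h1b, Hist1h1t and Hist2h2be. Hist1h2bq and Hist1h2br, which encode H2B from neighbouring loci, shared 100% and 99.8% of their runs. Their counts were 2675 and 2672 in the first input, 1760 and 1787 in the second input, 304 and 305 in RIP replicate 1, and 435 and 426 in RIP replicate 2, so that the pair cannot be read as separate genes. Hist1h2ao and Hist1h2ap, a pair of H2A genes, shared 93.5% and 93.1% of their runs. The text therefore gives sums over a class beside single genes. A sum does not depend on how reads are split between copies of that class. Reads left uncounted, counted at more than 1 copy, or shared with a gene of another class or outside the family can still change it. How such reads were counted is not given in the sources used here.

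Histone transcripts were far less abundant in the anti-YTHDF2 pulldown than in the input. Of the 64 members that passed the filter on low counts, 56 were depleted (87.5%), against a background of 17.2% of all tested genes, and 0 were enriched, against a background of 9.43%. By adjusted p under 0.05 (Benjamini-Hochberg over all tested genes) 49 were lower, against a background of 9.78%, and 0 were higher. The count of enriched members was also 0 with DESeq2, but 1 (Hist2h2aa1) with the replicate number as a block. Leaving out input replicate 2 raised it as well, as described below. Of the 64, 63 lay below 0, against a background of 51.9%. The median log2 fold change of the tested members was -2.11, and that of all tested genes -0.05. Other protein-coding genes with a longest transcript of up to 1000 nt were also mostly depleted (76.6%), with a median of -2.18. The highest CPM of the RIP libraries lay under the lowest CPM of the inputs for 59 members, against a background of 31.3%. The 6 members that did not pass the filter, Hist1h1t, Hist1h2aa, Hist1h2ba, Hist2h2aa2, Hist2h2bb and Hist2h3b, had at most 13 counts in any library. The count of calls without TMM scaling was 50 of 64, and leaving out RIP replicate 1 gave 44.

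**Figure D1:**
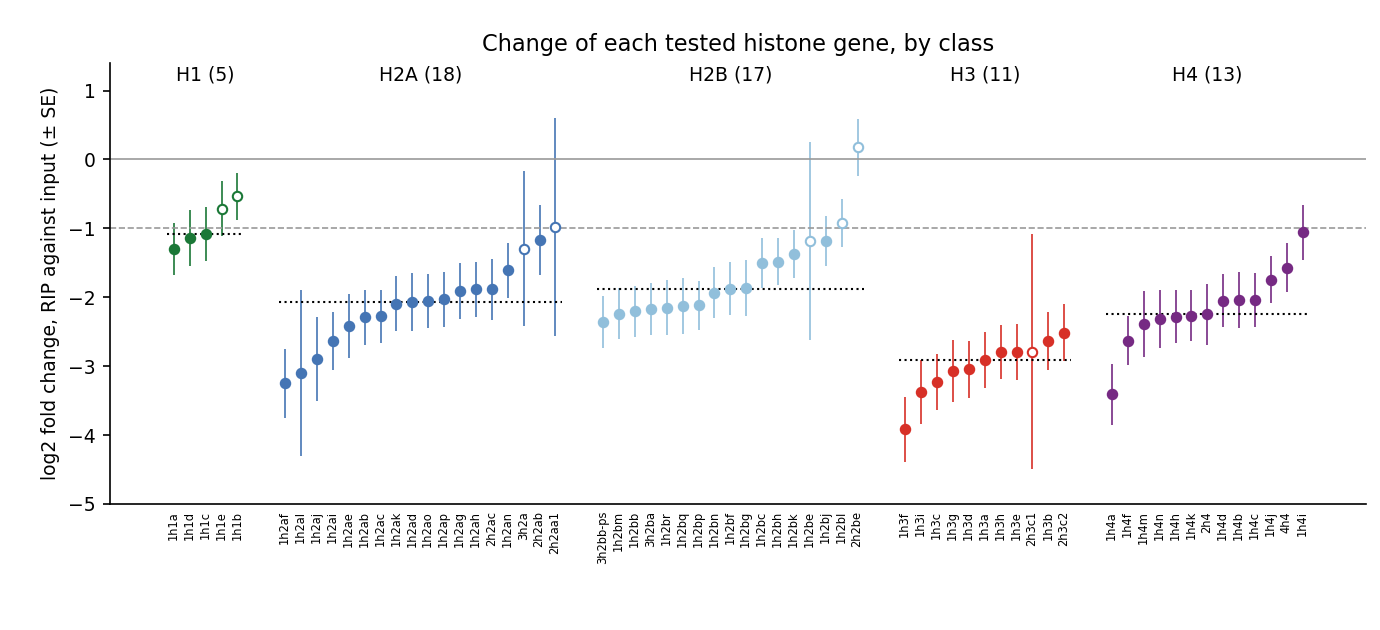
Log2 fold change of RIP against input (y axis) for the 64 tested histone genes, ordered within each class along the x axis, with the standard error as a bar and the class median as a dotted line. Names are given without the prefix Hist, filled points were depleted and open points were not called. The 11 H3 genes lie between -3.92 and -2.51, and the H1 genes lie between -1.30 and -0.53.

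Summed over all 70 members, the inputs held 213374 (replicate 1) and 157696 (replicate 2) histone counts, and the RIP libraries 25600 (replicate 1) and 34788 (replicate 2). The histone counts, pseudogenes included, thus equalled 5.22% and 3.78% of the counts of protein-coding genes before the pulldown, but 1.16% and 1.67% after it. The log2 ratio of the summed CPM was -2.16 ± 0.70 (SD, n = 2), which is 4.48-fold lower, with ratios of -2.66 in replicate 1 and -1.67 in replicate 2. Both RIP libraries lay under both inputs. The 4 members with a log2 difference of 4 or more between the inputs, described below, are set aside here. Among the other 60 tested members, the ratio was lower in replicate 1 than in replicate 2 for 59. Of these 60, 59 were also lower in input replicate 2 than in input replicate 1. The direction differed in 1 of these 60, Hist2h2be, with a log2 ratio of -0.09 in replicate 1 and 0.51 in replicate 2.

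**Figure D2:**
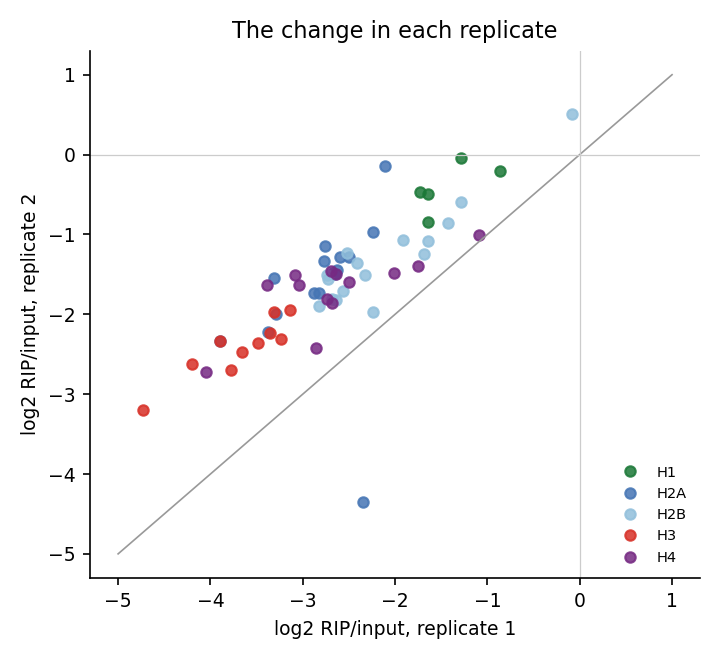
Log2 ratio of RIP to input in replicate 1 (x axis) against replicate 2 (y axis) for 60 tested histone genes, coloured by class, with the line of equal ratios. The 4 genes with a log2 difference of 4 or more between the inputs are left out. All but 1 of the points lie above the line, and the H3 genes sit at the lower left.

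The classes did not fall by the same amount. H3, the core histone whose tail carries many of the best-known modifications, had the largest fall. Its 12 genes summed to 1806 and 1284 CPM before the pulldown and to 150 and 232 CPM after it, a mean log2 ratio of -3.03 ± 0.79 (SD, n = 2), or 8.16-fold lower. H4, its partner in the core tetramer, summed to 1555 and 1101 CPM in the inputs and 222 and 319 CPM in RIP, with a mean log2 ratio of -2.30 ± 0.72 (SD, n = 2). H2A, which pairs with H2B in the dimers that flank the tetramer, summed to 1451 and 1045 CPM in the inputs and 221 and 330 CPM in RIP, with a mean log2 ratio of -2.19 ± 0.75 (SD, n = 2). In all 3 classes the RIP libraries lay well under the inputs. H2B, the partner of H2A, summed to 1053 and 847 CPM in the inputs and 221 and 301 CPM in RIP, with a mean log2 ratio of -1.87 ± 0.54 (SD, n = 2). H1, the linker histone that binds DNA between nucleosomes, summed to 536 and 319 CPM in the inputs and 201 and 264 CPM in RIP. Its mean log2 ratio of -0.84 ± 0.81 (SD, n = 2) was about as large as its spread, with -1.41 in replicate 1 and -0.27 in replicate 2.

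The scaling of the libraries cancels in the difference between classes of the same replicate. That difference varied less between replicates than the change of any class. The log2 ratio of the H1 sum exceeded that of the H3 sum by 2.18 in replicate 1 and by 2.19 in replicate 2. For H2B over H3 the difference was 1.34 and 0.97, for H4 over H3 it was 0.78 and 0.68, and for H2A over H3 it was 0.87 and 0.81. H1 over H2B gave 0.84 in replicate 1 and 1.22 in replicate 2. As shares of all histone counts in a library, which need no scaling between libraries, H3 held 28.2% and 27.9% in the inputs and 14.8% and 16.1% in RIP. H1 held 8.37% and 6.94% in the inputs and 19.8% and 18.3% in RIP. The shares of H2A (21.7% to 22.8%) and of H4 (21.8% to 24.3%) moved little across the 4 libraries, and that of H2B was 16.4% and 18.4% in the inputs and 21.8% and 20.8% in RIP. These class differences rest on 2 replicates and were not tested for significance.

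**Figure D3:**
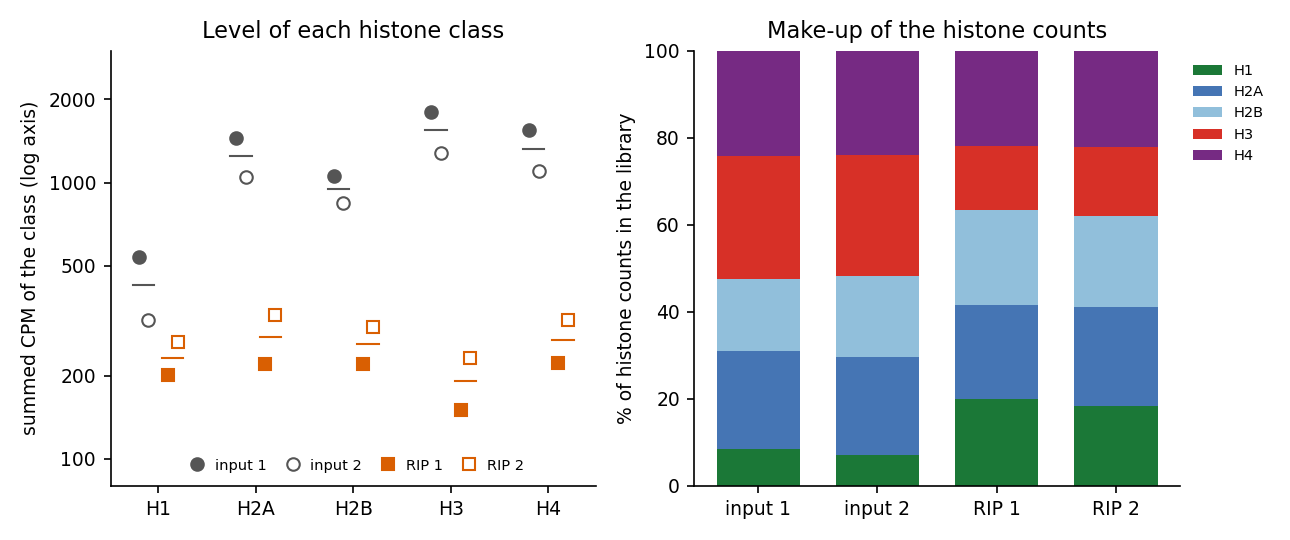
Left, summed CPM of each histone class (log axis) in each input (circles) and RIP library (squares), with open symbols for replicate 2 and the mean as a line. Right, the share of all histone counts in a library that fell on each class, where H3 drops from 28.2% and 27.9% in the inputs to 14.8% and 16.1% in RIP and H1 rises from 8.37% and 6.94% to 19.8% and 18.3%.

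Among the H3 genes 10 of 11 tested were depleted, all 10 also at adjusted p under 0.05, and their median log2 fold change was -2.91. Hist1h3f (chr13:23544052-23545312, plus strand) fell the most of all histone genes. Its level was 233 and 159 CPM in the inputs and 8.76 and 17.3 CPM in RIP, a log2 fold change of -3.92 ± 0.47 (SE), or 15.1-fold, with adjusted p = 0.0019 by edgeR. Hist1h3i had 235 and 153 CPM in the inputs and 12.8 and 24.7 CPM in RIP, a log2 fold change of -3.37 ± 0.47 (SE). It shared 79.3% of its runs of 50 bases with Hist1h3h, which had 139 and 93.1 CPM in the inputs and 14.7 and 18.7 CPM in RIP (log2 fold change -2.80 ± 0.39, SE). Hist1h3c, at 250 and 177 CPM in the inputs and 18.2 and 27.3 CPM in RIP, changed by -3.23 ± 0.41 (SE), and Hist1h3b, at 260 and 167 CPM in the inputs and 26.2 and 42.6 CPM in RIP, by -2.64 ± 0.42 (SE). In each of these 5 genes both RIP libraries lay under both inputs. Of the 53 tested genes of the other classes only 6 lay under -2.51, the highest value of an H3 gene, and H3 genes made up 6 of the 10 lowest members.

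A short motif was found in the coding sequences of H3 genes and not in those of the other classes. GGACT, a frequent form of the sequence in which m6A is laid down, was present on the sense strand in the coding sequence of all 12 H3 members and of 0 of the 55 protein-coding members of the other classes. Outside the coding sequence it was not particular to H3, since the annotated transcripts of 11 of the 58 members of the other classes hold it, among them Hist1h1c with 5 copies, Hist1h1d with 4 and Hist1h4d with 3. In 11 H3 members it begins at base 231 of the coding sequence, counted from 1 at the A of the start codon, and in Hist2h3c1, whose annotated coding sequence is longer, at base 366. The sequence there, with the motif in capitals, reads as follows.
Hist1h3f: agatcgcgcaGGACTtcaagaccga
Hist2h3c2: agatcgcgcaGGACTtcaagacgga
The first form is that of 9 Hist1 members. As the H3 coding sequences are near copies of one another (median identity 97.6%), the 12 members are not independent cases. GGACT lay within the first 300 coding bases of 6734 of 21002 other protein-coding genes (32.1%) and of 11 of the 67 histone members (16.4%). No m6A was measured in these libraries, and a match is a description of the letters only.

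All 13 H4 genes were depleted, 12 of them at adjusted p under 0.05, with a median log2 fold change of -2.25. Hist1h4d (chr13:23581598-23582735, plus strand) had the largest counts of any histone gene, 17071 and 12669 before the pulldown and 2289 and 2929 after it. On the CPM scale its log2 fold change was -2.05 ± 0.38 (SE), with adjusted p = 0.0117. Per length, the highest H4 level in the inputs was that of Hist1h4h, with 485 and 383 FPKM, against 108 and 106 FPKM in RIP, and its log2 fold change was -2.28 ± 0.38 (SE). Hist1h4a fell the most, from 397 and 265 FPKM to 35.4 and 39.1 FPKM, with a log2 fold change of -3.41 ± 0.44 (SE). Hist1h4f had 143 and 155 FPKM in the inputs and 29.1 and 28.2 FPKM in RIP (log2 fold change -2.63 ± 0.36, SE). The RIP libraries lay under the inputs for all of them, and the ranges of 1 SE around Hist1h4d, Hist1h4h and Hist1h4f overlap. Differences between these genes were not tested.

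Of the 18 tested H2A genes 16 were depleted, 14 of them at adjusted p under 0.05, with a median log2 fold change of -2.06. Hist1h2af had the highest level per length of all histone genes in input replicate 1, with 613 FPKM, but not in input replicate 2, with 285 FPKM, and had 60.9 and 55.0 FPKM in RIP. Its log2 fold change was -3.25 ± 0.49 (SE), with adjusted p = 0.00483. Hist1h2af also differed between the inputs by a log2 difference of -1.28, the lowest of any member, and only 6.00% of its runs of 50 bases were its own. Hist1h2ak had 459 and 329 FPKM in the inputs and 107 and 115 FPKM in RIP (log2 fold change -2.09 ± 0.40, SE). Hist1h2ai had 331 and 245 FPKM in the inputs and 49.95 and 60.1 FPKM in RIP (log2 fold change -2.63 ± 0.42, SE), and Hist1h2ab 234 and 191 FPKM and 46.8 and 56.1 FPKM (log2 fold change -2.29 ± 0.40, SE). All 4 of these genes were lower in both RIP libraries than in either input. Hist2h2ab, a low-level H2A gene of the Hist2 cluster with 6.90 and 3.23 CPM in the inputs and 1.59 and 2.91 CPM in RIP, was called at a log2 fold change of -1.17 ± 0.51 (SE), with an adjusted p of 0.164 by edgeR, and the call was lost in 9 of the 13 other settings, DESeq2 among them. Hist1h2al, a gene outside the naming rule that was chosen after its values were seen, is among the depleted genes but had only 23 and 14 input counts and 3 and 0 RIP counts, so that its fitted change depends on the prior count.

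Of the 17 tested H2B genes 14 were depleted, 13 of them at adjusted p under 0.05, with a median log2 fold change of -1.87. Hist1h2bb had 297 and 285 FPKM in the inputs and 70.5 and 79.0 FPKM in RIP, with a log2 fold change of -2.21 ± 0.38 (SE). Hist1h2bn had 281 and 223 FPKM in the inputs and 82.6 and 76.7 FPKM in RIP (log2 fold change -1.93 ± 0.37, SE), Hist1h2bm 202 and 180 FPKM and 46.4 and 50.1 FPKM (-2.24 ± 0.38, SE), and Hist1h2bg 174 and 131 FPKM and 44.8 and 54.4 FPKM (-1.86 ± 0.40, SE). These 4 genes differed from one another by less than these errors, which are those of RIP against input. Differences between the genes were not tested. Hist1h2bl, with 35.2 and 30.6 CPM in the inputs and 14.5 and 20.3 CPM in RIP, was not called, at -0.92 ± 0.35 (SE), but was at -1.03 and called without input replicate 2.

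Hist2h2be (chr3:96221119-96223738, plus strand) had the highest value of all tested histone genes. Its counts were 104 and 70 before the pulldown and 74 and 70 after it, which is 3.12 and 2.04 CPM against 2.93 and 2.91 CPM, so the groups overlap. The log2 fold change was 0.18 ± 0.41 (SE), with an adjusted p of 0.814 by edgeR, and it was -0.10 without input replicate 2. All of its runs of 50 bases were its own. Its annotated transcript is 2620 nt long and runs 2192 bases past the stop codon, holds no stem-loop of the form searched, and has 2 copies of AATAAA, the signal for a poly(A) tail, after the stop codon. These traits were not particular to it. Of 18 tested members with AATAAA after the stop codon 14 were depleted, as were 5 of 6 with an end over 40 bases long and no stem-loop. Other protein-coding genes of 2000 to 4000 nt had a median log2 fold change of -0.08.

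The H1 genes changed least. Of 5 tested, 3 were depleted and 0 passed an adjusted p of 0.05, and their median log2 fold change was -1.08. Hist1h1a had 43.1 and 25.4 CPM in the inputs and 13.8 and 14.1 CPM in RIP, with a log2 fold change of -1.30 ± 0.38 (SE) and an adjusted p of 0.0559 by edgeR. Hist1h1c, with 101 and 69.2 CPM in the inputs and 30.4 and 50.1 CPM in RIP, changed by -1.08 ± 0.39 (SE), and Hist1h1d, with 108 and 56.8 CPM in the inputs and 34.6 and 40.4 CPM in RIP, by -1.14 ± 0.40 (SE). All 3 calls were lost when libraries were scaled by size alone, with limma on FPKM, or without input replicate 1 or RIP replicate 1. Hist1h1e, the H1 gene with the highest level per length, had 239 and 132 CPM in the inputs and 98.0 and 129 CPM in RIP, and the lower input lay just above the higher RIP library. Its log2 fold change was -0.71 ± 0.40 (SE). Hist1h1b, with 44.5 and 35.3 CPM in the inputs and 24.4 and 30.7 CPM in RIP, was at -0.53 ± 0.34 (SE). Neither was called. Hist1h1e was at -1.08 and called without input replicate 2, where 4 of the 5 H1 genes were depleted, and at -0.22 without input replicate 1.

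How the mRNA ends in the annotation went with small differences only. Among members with a stem-loop and at most 100 bases beyond it, 20 of 21 tested were depleted, with a median log2 fold change of -2.21. Among those with a stem-loop and a longer annotated end, whose median length beyond the loop was 752 bases, 18 of 22 were depleted, with a median of -2.05. The 6 members with an end over 40 bases long and no stem-loop, of which 5 hold AATAAA, ran from -2.15 to 0.18, and 5 of the 6 were depleted. The counts do not say which end a transcript used.

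Transcript length moved with the change in the pulldown across all genes. Of 402 other protein-coding genes with a longest transcript of up to 1000 nt, 76.6% were depleted, with a median log2 fold change of -2.18. The 46 tested histone genes of that length had a median of -2.15, and 43 of them were depleted. At 1000 to 2000 nt, 34.6% of 1667 other genes were depleted with a median of -0.73, beside 8 of 10 histone genes with a median of -2.15. At 2000 to 4000 nt, 12.3% of 4789 other genes were depleted with a median of -0.08, beside 4 of 7 histone genes with a median of -1.57. Up to 500 nt the order was the other way, with a median of -3.39 over 26 other genes and -2.18 over 26 histone genes. A Spearman correlation was taken across 60 members, without the 4 whose log2 difference between the inputs was 4 or more. The log2 fold change gave 0.24 with transcript length and -0.28 with GC content, over genes that share libraries and sequence. All these lengths are those of the annotation, and several of the longer histone transcripts run far past the stem-loop. Hist1h3d has 752 of its 1249 nt past the loop, Hist1h4d 770 of 1138 and Hist2h4 1257 of 1630. An mRNA that ends at the loop would be shorter, so the ranges over 1000 nt may not compare like lengths. The part of length in the fall of the histone genes was not tested.

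**Figure D4:**
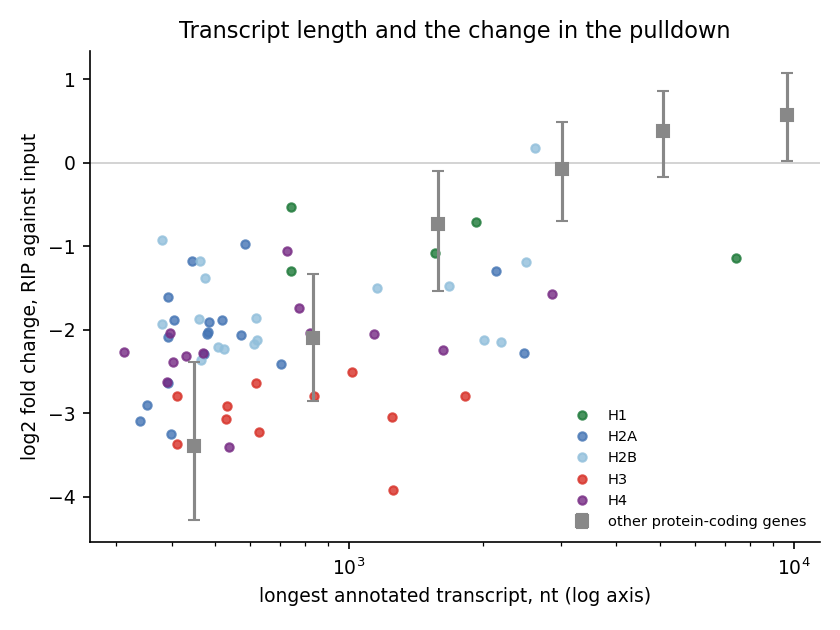
Log2 fold change of RIP against input (y axis) against the length of the longest annotated transcript (x axis, log axis) for the 64 tested histone genes, coloured by class. Grey squares give the median of the other protein-coding genes in 6 length ranges, with bars from the lower to the upper quartile, and run from -3.39 in the shortest range to 0.58 in the longest.

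Genes related to the histone mRNAs gave a background. Of 12 tested replication-independent histone genes, most of whose mRNAs carry poly(A) tails, 8 were depleted and 0 enriched, with a median log2 fold change of -1.36. H1f0, the linker histone of non-dividing cells, had 85.7 and 58.6 FPKM in the inputs and 81.2 and 58.0 FPKM in RIP, with a log2 fold change of -0.36 ± 0.38 (SE). H3f3b, which encodes the H3.3 variant, had 48.7 and 69.4 FPKM in the inputs and 81.7 and 61.9 FPKM in RIP, with a log2 fold change of 0.01 ± 0.34 (SE). In both the groups overlapped. H2afz, the H2A.Z variant, fell from 38.7 and 32.8 FPKM to 14.2 and 14.0 FPKM, with a log2 fold change of -1.60 ± 0.36 (SE) and adjusted p = 0.0235 by edgeR. H2afx, a variant with a role in the response to DNA breaks, was at -0.78 ± 0.37 (SE), from 37.0 and 26.0 FPKM to 23.5 and 21.2 FPKM, and was not called.

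Of 30 genes whose products make, process or degrade histone mRNA, 5 were depleted (16.7%, background 17.2%) and 2 enriched (background 9.43%), a share near the background, with a median log2 fold change of -0.12. Slbp itself had 348 and 445 input counts and 260 and 284 RIP counts, with a log2 fold change of -0.08 ± 0.34 (SE). By adjusted p under 0.05, Lsm4, Lsm7 and Fip1l1 were lower and Dcp2 was higher. Lsm4 and Lsm7, subunits of the LSM ring that binds RNA ends, fell by 2.28 and 1.86 on the log2 scale, from 462 and 241 counts to 55 and 51 and from 132 and 169 counts to 30 and 30. Fip1l1, a subunit of the polyadenylation complex, fell by 1.19, from 583 and 609 counts to 211 and 170. Dcp2, the decapping enzyme, rose by 2.21 ± 0.53 (SE), from 129 and 420 counts to 883 and 956. Of 40 S phase genes 8 were depleted (20%) and 3 enriched, with a median of -0.22, and of 25 genes of G2 and M phase 6 were depleted (24%) and 0 enriched, with a median of -0.38. Of 36 ribosomal protein genes, whose longest annotated transcripts have a median of 1076.5 nt, 33 were depleted, with a median log2 fold change of -2.52.

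The 2 inputs did not hold the same amount of histone RNA. Of the 64 tested members 59 were lower in input replicate 2, against a background of 57.2% of all tested genes, and 5 were higher, namely the 4 described below and Hist4h4 at 0.02. The median log2 difference of input replicate 2 minus input replicate 1 was -0.52 over the 64 members and -0.16 over all tested genes. The sum over all members was lower by a log2 difference of -0.48 in input replicate 2, and higher by 0.51 in RIP replicate 2 than in RIP replicate 1. Between the RIP libraries 59 of 64 members were higher in replicate 2, against a background of 50.5%, with Hist2h2ac and Hist1h4m past a log2 difference of 1 (background 6.12%) and Hist1h2al and Hist2h3c1 past -1 (background 5.73%), all named after their values were seen. Each class sum went the same way, from -0.31 for H2B to -0.75 for H1 in the inputs. These 2 sums hold Hist1h2be (H2B, 8 and 2456 input counts) and Hist1h1e (H1, 7974 and 4540 input counts), which share exon bases. The pair together had 7982 and 6996 input counts, and its part in these 2 values was not tested. Other protein-coding genes with a GC content between the lower and the upper quartile of the members (51.1% to 62.9%) had a median input difference of -0.53, the same size as the histone genes. Of the 40 S phase genes 28 were lower in input replicate 2, with a median of -0.27, whereas the 25 genes of G2 and M phase had a median of 0.32. With 1 library on each side there is no test of these differences, and the part of GC content in them was not tested.

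At a log2 difference of -1 or lower were Hist1h2af (-1.28) and Hist2h2ab (-1.09), 2 of the 64 against a background of 9.68%, and 4 members were past 1 in the other direction, against a background of 17.5%. Next to the former came Hist1h1d (-0.93) and Hist1h1e (-0.85). The other 4 stood apart by a log2 difference of more than 4 from input replicate 1 to input replicate 2. They were Hist3h2a, named by the rule for differences between the inputs, Hist2h2aa1, named for its fold change, and Hist1h2be and Hist2h3c1, which were chosen after their values were seen because they had under 20 counts in input replicate 1. Over the other 60 the differences ran from -1.28 to 0.02, with a median of -0.53.

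Hist3h2a (chr11:58954685-58956830, plus strand), the only H2A gene of the Hist3 cluster, had 69 counts in input replicate 1 and 2877 in input replicate 2, and 416 and 447 in the RIP libraries. Scaled by TMM the inputs differed 40.5-fold (95% exact binomial interval 31.9 to 52.2, counting error only). Hist1h2be had 8 and 2456 counts in the inputs, 298-fold apart (151 to 692), and 351 and 425 in RIP. Hist2h2aa1 had 1 and 2663 input counts and 414 and 556 RIP counts, with an input ratio of 2587 whose interval ran from 464 to 102234. Hist2h3c1 had 2 and 1698 counts in the inputs, 825-fold apart (228 to 6817), and 158 and 21 in RIP. Input replicate 1 was thus the lowest of the libraries for all 4, and the pulldown of the same replicate held 158 to 416 counts of each. Their log2 fold changes, from -2.79 ± 1.71 (SE) for Hist2h3c1 to -0.97 ± 1.58 (SE) for Hist2h2aa1, were not called. Without input replicate 1 Hist3h2a was at -2.26 and Hist2h2aa1 at -1.97, both called depleted, and without input replicate 2 they were at 3.07 and 9.15, both called enriched, as were Hist1h2be and Hist2h3c1. With the replicate number as a block, Hist2h2aa1 passed the enriched limits at 2.00 (adjusted p = 0.129 by edgeR), and Hist3h2a was at 0.34 and not called.

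**Figure D5:**
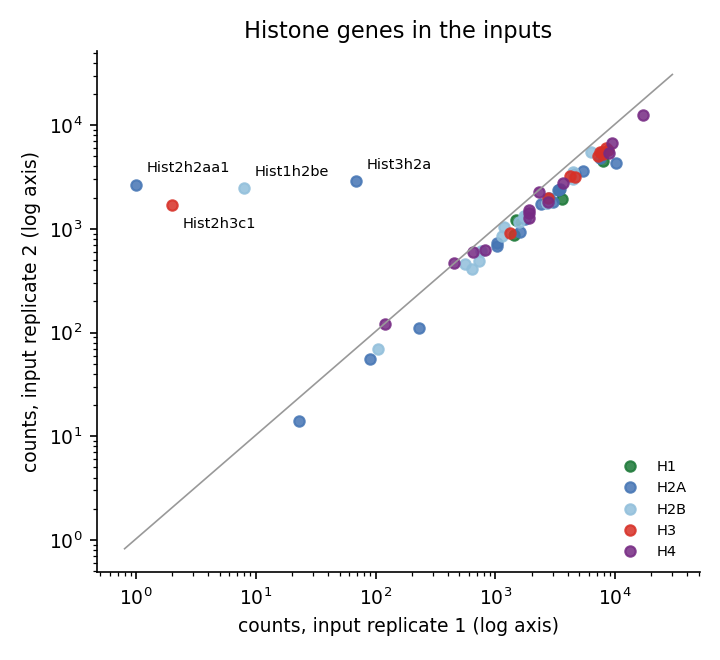
Counts of the 64 tested histone genes in input replicate 1 (x axis, log axis) and input replicate 2 (y axis, log axis), coloured by class, with the line of equal scaled levels. The 4 named genes lie far above the line, with 69, 8, 2 and 1 counts in input replicate 1, and 59 of the other 60 lie under it.

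All 4 share exon bases with another gene on the same strand. Hist3h2a shares 708 bases, 33.0% of its exons, with Trim17, a ubiquitin ligase gene that had 8 and 4 counts in the inputs. Hist1h2be shares 496 bases with Hist1h1e, and the pair together had 7982 and 6996 input counts and 2824 and 3522 RIP counts. Hist2h3c1 lies whole within the exons of the processed transcript Gm20634, which also covers 90.3% of Hist2h2aa1 and itself had 63 and 1523 counts in the inputs. Of the 9709 tested genes with at least 100 counts over both inputs, 6 differed by a log2 difference of 4 or more from input replicate 1 to input replicate 2. They were these 4 together with Gm20634 and Zbed6, which were named after their values were seen. All 6 share exon bases on the same strand, as do 9.26% of the 9709. Reads that fall on bases of more than one gene can be left uncounted or given to either, and the setting used is not given in the sources used here.

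In the Hist2 cluster antisense genes took counts where histone genes had almost none. Hist2h2bb and Hist2h3b lie whole opposite the exons of Gm20628, which had 7972 and 5061 input counts and 835 and 1125 RIP counts, whereas each of the 2 histone genes had 1, 6, 0 and 0. Hist2h2aa2 lies whole opposite Gm20632, which had 4530, 2845, 464 and 660 counts, and had 13 counts in RIP replicate 1 and 0 elsewhere. Of the other members, Hist1h4b has the largest count opposite its exons, 409, 316, 68 and 74 for 4930558J22Rik. The kit marks strand, but the strand setting of the counting is not given in the sources used here, so that counts of a histone gene and of the gene opposite it are uncertain.

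Without the 4 members that stood apart between the inputs, 56 of 60 were depleted, and the H3 and H2A sums had mean log2 ratios of -3.03 and -2.28. The H2B sum without Hist1h2be is not given here. Hist1h1e, which shares exon bases with Hist1h2be, stayed in the H1 sum. Among the 31 tested members with at least 50% of their runs of 50 bases found in no other gene, 26 were depleted, with a median log2 fold change of -2.05, and among the 33 others 30 were, with a median of -2.13. Of the 3 tested members with only runs of their own, Hist1h1a, Hist1h1b and Hist2h2be, 1 was depleted, and their median was -0.53. The Spearman correlation of the share of own runs with the log2 fold change was 0.30 across the 60 members without the 4 that stood apart. These genes share libraries and sequence.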

How the data were processed

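The authors deposited a table of read counts per gene, not normalized, and a table of FPKM values, scaled by the authors for gene length and library size, for anti-YTHDF2 RIP and input of P0 retina (2 replicates each). The submitters' processing notes name STAR 2.5, HTSeq and GRCm38, with no settings. Genes with low counts were removed by filterByExpr (at least 10 in a group, 15 in total), and libraries were scaled by TMM over the whole table and tested with edgeR 4.0.16 (glmQLFTest) in R 4.3.3. Standard errors come from the fold change and its F statistic. Calls needed an absolute log2 fold change of 1 and p below 0.05, and p-values were adjusted by Benjamini-Hochberg over all 13632 genes. Ratios of single libraries used a pseudocount of 0.5 counts. The 64 tested members had 40 to 34958 counts each over the 4 libraries.

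Each replicate has an input and a pulldown per the series design, so numbers mark a shared replicate. The deviations of same-numbered libraries had a Spearman correlation of -0.0316 across 13632 genes. The main fit has no block.

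Positions, exon overlaps, transcripts and runs of 50 bases are those of the GENCODE M21 annotation on GRCm38, in which 52403 of 52550 identifiers were found. The longest transcript gave a gene's length and GC content, and the longest protein-coding transcript its coding sequence and annotated end; the 2 differ for Hist1h2bq and Hist1h2br. Protein sequences were not used here. Named members are the 4 with the highest mean FPKM of each class, the 5 highest and 5 lowest fold changes, the 5 largest input differences among members with at least 20 counts in each input, and every enriched member. From the lists they are histone-processing genes past an adjusted p of 0.05, Slbp, and the 4 replication-independent histone genes of highest mean FPKM. Members and lists were chosen with earlier results of these data known. The alternatives were DESeq2 1.42.0, other scalings and filters, the block, limma 3.58.1 on log2(FPKM + 0.1) and log2(FPKM + 1) (mean FPKM 0.1 or more), and each library left out. The tests were tried on simulated data.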

Additional observations from a re-analysis of the deposited data

How the results depend on the processing

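The 56 depleted members became 50 with scaling by library size alone and 53 with DESeq2, and leaving out each library in turn gave 44 to 58. Of 27 named members under 13 alternatives, 310 of 350 values kept their direction and side of the threshold. Enriched members were 0 except for 1 under the replicate block (Hist2h2aa1) and 4 without input replicate 2 (0 to 4 over the libraries left out); the block changed no other call of a named member. Values on the other side of 0 were those of Hist3h2a (0.34 under the replicate block, 3.07 without input replicate 2, within -2.26 to 3.07 over the libraries left out, 0.61 and 0.22 with limma on log2(FPKM + 0.1) and log2(FPKM + 1)), of Hist2h2aa1 (2.00 under the block, 9.15 without input replicate 2, within -1.97 to 9.15, and 3.14 and 1.65 with limma) and of Hist2h2be (-0.10 without input replicate 2, within -0.10 to 0.52). The cause was not tested. Over all genes, 1562 to 2610 were depleted and 670 to 2097 enriched with each library left out. Limma on log2(FPKM + 1) gave 1055 and 386, adjusted p below 0.05 gave 1333 and 474, and library size alone gave 2357 enriched. Library size alone moved the median of all genes from -0.05 to 0.27 and that of the members from -2.11 to -1.78, so that their distance stayed at -2.05. The median input difference of -0.52 was -0.36 by library size, -0.50 by DESeq2 size factors, -0.34 on log2(FPKM + 1) and -0.53 with at least 10 counts in every library. In the alternative chosen after seeing the data, 26 of 31 members with at least 50% of their own runs of 50 bases were depleted. Intervals cover counting error only, and more depth would not separate members without a run of 50 bases of their own.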
